A study of Mus musculus with 8 samples.

Results

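Expression of 31 genes of cholesterol and fatty acid synthesis was examined in macrophages with and without Gsdmd, the gene of the pore-forming protein gasdermin D. The 31 genes were chosen by symbol from their known roles, each was found once among the 54532 genes of the count table, and all 31 had enough counts to be tested. They comprise 18 enzymes of the sterol pathway, 6 genes of its control and of sterol transport, and 7 genes of acetyl-CoA supply and of fatty acid synthesis, elongation and desaturation. The RNA came from bone marrow-derived macrophages (BMDMs), cells grown from bone marrow in medium with macrophage colony-stimulating factor. Differentiation lasted 6 days, and the sources used here name no treatment for these libraries. There were 4 libraries from WT and 4 from Gsdmd-/- mice. The marrow donors are described as female C57BL/6J mice of 6 to 8 weeks, without a separate entry for the knockouts. WT mice were bought, whereas the Gsdmd-/- mice were a gift from another laboratory and were kept at a university animal facility, so genotype and colony cannot be told apart. No source used here says whether the libraries were made from different mice, and p-values then measure only the spread between these libraries. The libraries held between 14935114 and 16794810 counts. Levels are given as CPM, counts relative to library size scaled by the TMM factors of edgeR. The log2 fold change (log2FC) is that of Gsdmd-/- against WT, with its standard error (SE), and adjusted p-values are from edgeR.

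Cholesterol is built from acetyl-CoA. The mevalonate steps give isoprenoid units, which are joined to squalene, closed to lanosterol and trimmed to cholesterol. The enzymes are driven by SREBP-2, the product of Srebf2, a membrane protein that the escort SCAP carries to the Golgi for cleavage when sterols are low and that the INSIG proteins hold back when sterols are high. Fatty acid synthesis starts from the same acetyl-CoA and is driven by SREBP-1, the product of Srebf1, a gene that the oxysterol receptors LXR induce. In macrophages these pathways are known to set membrane composition and to respond to inflammatory signals and to the uptake of lipids.

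Promoters were looked up in RefSeq (build GRCm38.p6), where 25 of the 31 genes matched, with 33 promoters of 250 bases before to 50 bases after the start. Fdft1, Fdps, Scd1, Scd2, Sqle and Stard4 were not matched. The core of the sterol regulatory element, searched as TCACNCCAC on both strands, was found in 1 of the 33 promoters (3.03%) and in 408 of all 32851 promoters (1.24%). The 1 promoter was that of Hmgcs1, which holds the match TCACCCCAC at position -137 from the start. The inverted CCAAT box ATTGG, a site of the factor NF-Y that acts beside SREBPs, was found in 22 of the 33 promoters (66.7%) and in 12289 of all promoters (37.4%). The GC box GGGCGG was found in 25 (75.8%) and in 11714 (35.7%). The LXR repeat, 2 copies of AGGTCA spaced by 4 bases, was in 0 of the 33 and in 5 of all promoters (0.0152%). Several promoters belong to the same gene, so these shares are a description. Variants of these letters and sites outside the window were not searched, so a promoter without a match may still hold such a site. Below are shown the promoters of 2 sterol genes, Hmgcs1 (chr13:119690101-119690400, plus strand) and Mvd (chr8:122443373-122443672, minus strand), and of 2 fatty acid genes, Fasn (chr11:120824498-120824797, minus strand) and Elovl6 (chr3:129532136-129532435, plus strand), to show both gene groups and promoters with and without the motifs. Capitals mark the sterol regulatory element core and every ATTGG, which reads CCAAT on the opposite strand.
Hmgcs1: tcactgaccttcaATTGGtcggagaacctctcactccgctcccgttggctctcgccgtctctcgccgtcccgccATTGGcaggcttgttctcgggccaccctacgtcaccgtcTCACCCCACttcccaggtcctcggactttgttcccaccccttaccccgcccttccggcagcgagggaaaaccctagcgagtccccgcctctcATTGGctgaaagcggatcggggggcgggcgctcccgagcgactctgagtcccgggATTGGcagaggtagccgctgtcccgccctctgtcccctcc
Mvd: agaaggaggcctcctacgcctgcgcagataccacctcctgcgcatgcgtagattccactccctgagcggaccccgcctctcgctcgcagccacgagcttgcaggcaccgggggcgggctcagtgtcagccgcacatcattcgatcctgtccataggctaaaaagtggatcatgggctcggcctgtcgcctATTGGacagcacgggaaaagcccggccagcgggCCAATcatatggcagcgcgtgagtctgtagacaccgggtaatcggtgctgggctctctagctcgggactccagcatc
Fasn: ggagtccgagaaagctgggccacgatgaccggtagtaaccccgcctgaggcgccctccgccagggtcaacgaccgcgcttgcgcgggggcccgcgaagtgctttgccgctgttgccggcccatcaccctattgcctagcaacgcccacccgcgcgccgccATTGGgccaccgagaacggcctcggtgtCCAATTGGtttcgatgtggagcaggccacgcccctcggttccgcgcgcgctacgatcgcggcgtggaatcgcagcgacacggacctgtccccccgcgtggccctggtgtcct
Elovl6: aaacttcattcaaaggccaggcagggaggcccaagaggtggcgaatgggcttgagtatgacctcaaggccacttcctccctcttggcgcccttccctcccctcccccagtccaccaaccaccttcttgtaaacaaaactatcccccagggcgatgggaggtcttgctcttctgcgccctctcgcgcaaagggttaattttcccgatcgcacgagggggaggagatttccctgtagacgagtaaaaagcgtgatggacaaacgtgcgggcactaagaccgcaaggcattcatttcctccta
Hmgcs1 has ATTGG at positions -237, -176, -45 and 11 besides its sterol element. Mvd has the box at -60 and, on the opposite strand, at -27. Fasn has it at -90 and, as a pair of overlapping matches on opposite strands, at -62 and -59. Elovl6 has neither motif in this window.

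The libraries were first checked against their labels. Gsdmd had 73.8, 63.5, 68.5 and 95.5 CPM in WT 1 to 4 and 18.2, 14.4, 16.3 and 16.0 CPM in Gsdmd-/- 1 to 4, a log2FC of -2.22 (SE 0.139, adjusted p = 4.67e-05, edgeR quasi-likelihood test). All 7 macrophage markers were detected in every library, with a sum of 15316 to 23409 CPM in WT and 19377 to 23365 CPM in Gsdmd-/-. Markers of adipocytes, which are rich in the lipid genes studied here, summed to at most 0.305 CPM, and all 4 were under 1 CPM in every library. WT 2 and WT 3 stood apart from the other 6 libraries of both genotypes, with scores of 45.4 and 38.8 on the first principal component, which held 43.6% of the variance, against -25.9 to -7.19. They were not copies of a single library, since the mean chi-square per gene between them was 7.65, where sampling noise alone gives about 1. Results are therefore given with all 8 libraries and without WT 2 and WT 3.

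With all 8 libraries, none of the 31 genes passed adjustment, and the largest differences were lower levels of fatty acid genes in Gsdmd-/- macrophages. Of the 31 genes, 5 were lower in Gsdmd-/- macrophages at an unadjusted p under 0.05, where 7.3% of the 12911 genes tested were lower, and 0 were higher, where 4.74% were. All 5 belong to the 7 fatty acid genes, namely Acss2, Scd1, Elovl6, Scd2 and Fasn. Of the 18 sterol enzymes, 11 were also below a log2FC of 0, where 6653 of the 12911 genes tested were. The difference between the gene groups was not tested. With a log2FC of at least 0.5 in size, 3 were lower (background 3.28%) and 0 higher (background 1.54%). After adjustment over all genes tested, 0 of the 31 passed in edgeR, limma voom or DESeq2, where 0.349% of genes passed in edgeR. With all 8 libraries, none of the differences described below therefore holds after correction. The median log2FC was -0.07 over the 31 genes, -0.01 over the 18 sterol enzymes and -0.48 over the 7 fatty acid genes, beside -0.0068 over all genes tested. Fewer cells of a kind and less RNA per cell cannot be told apart in such bulk libraries.

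**Figure D1:**
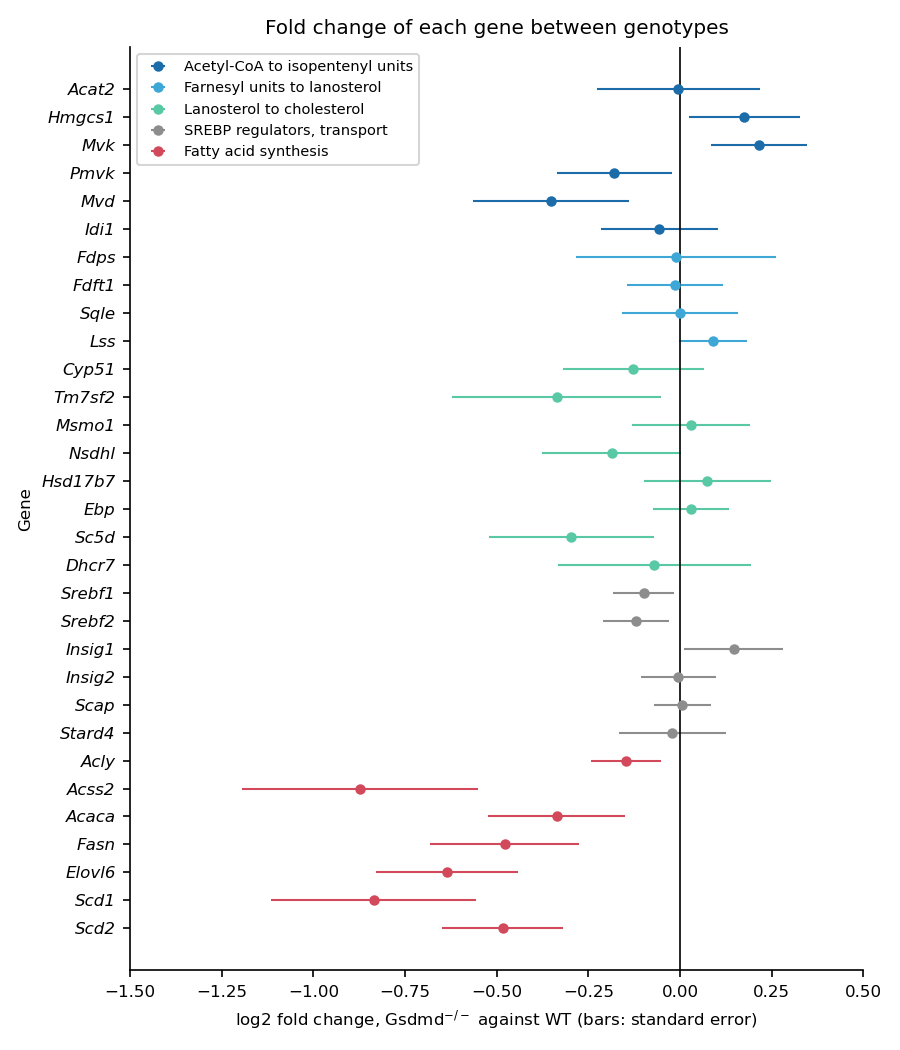
Log2 fold change of each of the 31 genes (horizontal axis, Gsdmd-/- against WT, edgeR, all 8 libraries), with bars for the standard error and colours for the role. The 7 fatty acid genes lie below 0, from -0.87 to -0.15, and the sterol enzymes lie on both sides of 0, from -0.35 to 0.22.

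Averaged over the genes, the mean log2 CPM of the 31 was 4.998, 5.47, 5.42 and 4.89 in WT 1 to 4 and 4.99, 4.96, 5.15 and 5.15 in Gsdmd-/- 1 to 4. This was 5.19 ± 0.294 in WT and 5.06 ± 0.103 in Gsdmd-/- (SD, n = 4 each), a difference smaller than the spread in WT, and every Gsdmd-/- library lay between the lowest and the highest WT library. WT 2 and WT 3 were the highest, WT 4 the lowest. The difference of -0.13 was -0.20 without WT 1, -0.039 without WT 2, -0.054 without WT 3 and -0.23 without WT 4, and it turned to 0.12 without both WT 2 and WT 3. The 18 sterol enzymes had a mean of 4.52, 5.05, 5.06 and 4.48 in WT 1 to 4 and of 4.68, 4.64, 4.90 and 4.78 in Gsdmd-/- 1 to 4. Here all 4 Gsdmd-/- libraries lay above WT 1 and WT 4 and below WT 2 and WT 3. The 7 fatty acid genes had a mean of 5.47, 5.98, 5.79 and 5.17 in WT and of 4.95, 4.97, 5.07 and 5.36 in Gsdmd-/-. In this group WT 4 lay within the Gsdmd-/- range and the other 3 WT libraries above it. Since the genes were chosen with results of these data known, no test was run on these means.

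**Figure D2:**
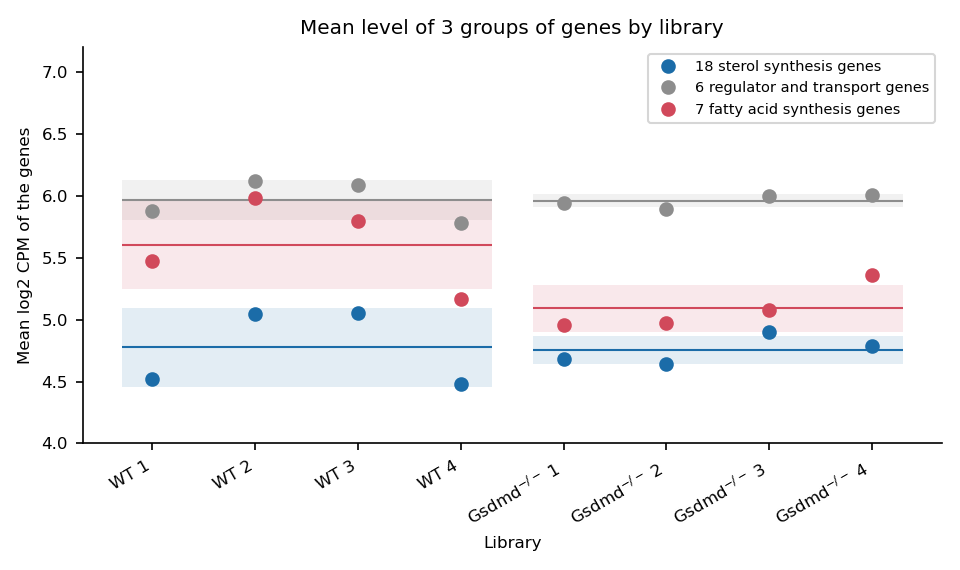
Mean log2 CPM per library for the sterol enzymes, the regulators and the fatty acid genes, 1 point per library, with a line for the mean and a band for the SD of each genotype (n = 4). The WT libraries split into a high pair, WT 2 and WT 3, and a low pair for the sterol enzymes, and the Gsdmd-/- libraries lie between these pairs.

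Of the 6 enzymes from acetyl-CoA to the isoprenoid unit, 2 were above and 4 below a log2FC of 0, and 0 passed an unadjusted p of 0.05. Of the 12911 genes tested, 6258 were above and 6653 below 0. Hmgcs1, the synthase of the mevalonate precursor, had 50.9, 75.4, 72.7 and 49.8 CPM in WT 1 to 4 and 66.7, 62.3, 80.4 and 71.7 CPM in Gsdmd-/- 1 to 4. WT 1 and WT 4 were below all Gsdmd-/- libraries and WT 2 and WT 3 were within their range, with a log2FC of 0.18 (SE 0.152, adjusted p = 0.701). Without WT 2 and WT 3 it was 0.48 (SE 0.118, adjusted p = 0.104). Mvk, mevalonate kinase, had 17.6, 13.9, 15.9 and 20.7 CPM in WT and 21.4, 17.98, 20.2 and 19.4 CPM in Gsdmd-/-. It was the 1 sterol enzyme in which WT 2 and WT 3 were the lowest of all libraries, and its log2FC of 0.22 (SE 0.131, adjusted p = 0.564) dropped to 0.04 without them. Leaving out 1 library at a time it ran from 0.13 to 0.33, with an unadjusted p under 0.05 in 1 of 8 fits, that without WT 4 (background 9.38% of genes higher in that fit). Mvd, the decarboxylase that forms isopentenyl diphosphate, had the most negative fold change of the sterol enzymes, and was given here for that reason after its values were seen. It had 54.3, 99.4, 105 and 56.5 CPM in WT and 61.7, 54.0, 68.6 and 62.6 CPM in Gsdmd-/-, a log2FC of -0.35 (SE 0.213, adjusted p = 0.562) that became 0.15 without the high WT pair. Acat2, Pmvk and Idi1 had log2FC values of -0.00, -0.18 and -0.06, and of 0.44, -0.17 and 0.21 without WT 2 and WT 3. Of the 50-base stretches of Acat2 transcripts, 39.1% also occur in other genes, mostly Acat3 and Tcp1, and of Idi1 25.3%, so their counts are uncertain.

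The 4 enzymes from farnesyl diphosphate to lanosterol had log2FC values between -0.01 and 0.09, and between 0.10 and 0.35 without WT 2 and WT 3. Lss, which closes the ring system of lanosterol, was among the steadiest genes, with 29.5, 29.5, 27.2 and 26.4 CPM in WT and 27.5, 31.8, 28.2 and 32.4 CPM in Gsdmd-/- (log2FC 0.09, SE 0.0919, adjusted p = 0.749). Sqle, squalene epoxidase, had means of 84.4 ± 19.5 CPM in WT and 84.4 ± 9.50 CPM in Gsdmd-/- (SD, n = 4 each). The equal means came from unequal WT libraries, 72.1 and 63.5 CPM in WT 1 and WT 4 against 101 CPM in each of WT 2 and WT 3. Fdft1, squalene synthase, showed the same order, with a mean of WT 2 and WT 3 that was 1.37 times that of WT 1 and WT 4. Fdps, farnesyl diphosphate synthase, had the fewest counts of the 31 genes, 259 over all 8 libraries, and 26.2% of its stretches occur in other genes, among them Gm3571 and Gm5873, so its level is uncertain. For Fdft1 the share was 26.5%.

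The 8 enzymes that convert lanosterol to cholesterol varied most between the WT libraries. The mean of WT 2 and WT 3 was between 0.993 and 2.31 times the mean of WT 1 and WT 4, lowest in Ebp and highest in Tm7sf2. Dhcr7, the reductase of the last step, is described after its values were seen. It had 48.9, 111, 103 and 46.4 CPM in WT 1 to 4 and 72.6, 76.2, 71.5 and 74.6 CPM in Gsdmd-/- 1 to 4. All 4 Gsdmd-/- libraries lay in a narrow band in the gap between the WT pairs, so that the means, 77.4 ± 34.4 and 73.7 ± 2.09 CPM (SD, n = 4 each), were alike while the spreads were not (log2FC -0.07, SE 0.263, adjusted p = 0.944). Against WT 1 and WT 4 alone log2FC was 0.63 (SE 0.0914, adjusted p = 0.0130), higher in 4 of 4 libraries. Tm7sf2, a sterol reductase of an earlier step, had 7.61, 17.1, 17.2 and 7.24 CPM in WT and 9.36, 8.81, 10.8 and 9.95 CPM in Gsdmd-/-, also between the pairs (log2FC -0.34, adjusted p = 0.692, and 0.39, adjusted p = 0.271, without WT 2 and WT 3). Hsd17b7, a ketosteroid reductase, had 16.1, 23.8, 21.3 and 13.8 CPM in WT and 18.7, 20.9, 17.1 and 22.4 CPM in Gsdmd-/- (log2FC 0.07, SE 0.172, adjusted p = 0.899). The demethylase genes Cyp51 and Msmo1 and the genes Nsdhl, Ebp and Sc5d had log2FC values of -0.13, 0.03, -0.19, 0.03 and -0.30, and the genotypes overlapped in each. Without WT 2 and WT 3 the 5 values were 0.25, 0.35, 0.24, 0.02 and 0.21, so the direction turned in Cyp51, Nsdhl and Sc5d.

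**Figure D3:**
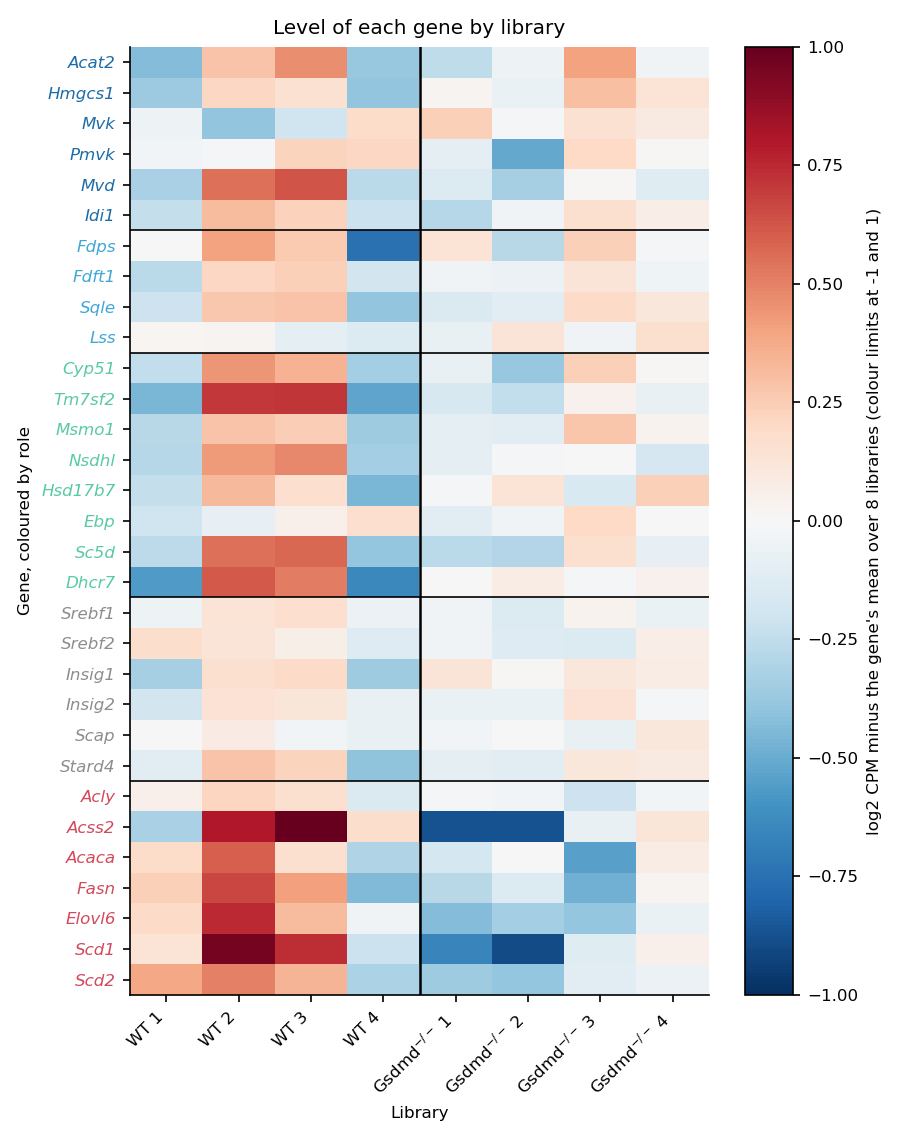
Log2 CPM of each of the 31 genes (rows, by role) in each of the 8 libraries (columns), as the difference from the mean of that gene over the 8 libraries, with a colour scale in log2 units that ends at -1 and 1. WT 2 and WT 3 are the 2 highest libraries for 10 of the 18 sterol enzymes, WT 1 and WT 4 are below all Gsdmd-/- libraries for 9 of them, and the fatty acid genes are lower in most Gsdmd-/- libraries.

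WT 2 and WT 3 were the 2 highest of the 8 libraries for 18 of the 31 genes, where this was so for 17.9% of all genes tested. These were 10 of the 18 sterol enzymes, 3 of the 6 regulators and 5 of the 7 fatty acid genes. All Gsdmd-/- libraries lay between the WT pairs for 6 genes (background 3.14%), namely Fdft1, Sqle, Tm7sf2, Nsdhl, Dhcr7 and Insig1. For 11 genes WT 1 and WT 4 were both below all Gsdmd-/- libraries (background 11.6%), and for 1 gene, Elovl6, both were above them (background 11.3%). Without WT 2 and WT 3, 13288 genes were tested, and 8 of the 31 were higher in Gsdmd-/- at an unadjusted p under 0.05 (background 6.32%). These were Acat2, Hmgcs1, Sqle, Tm7sf2, Msmo1, Hsd17b7, Dhcr7 and Insig1. At this level 0 were lower (background 6.8%), and Dhcr7 alone passed adjustment (background 1.21%). The median log2FC of the 18 sterol enzymes was then 0.25 and that of the 7 fatty acid genes -0.31. The fit compares 4 libraries with 2, which were kept because the others stood apart, and does not show which WT pair represents the genotype.

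**Figure D4:**
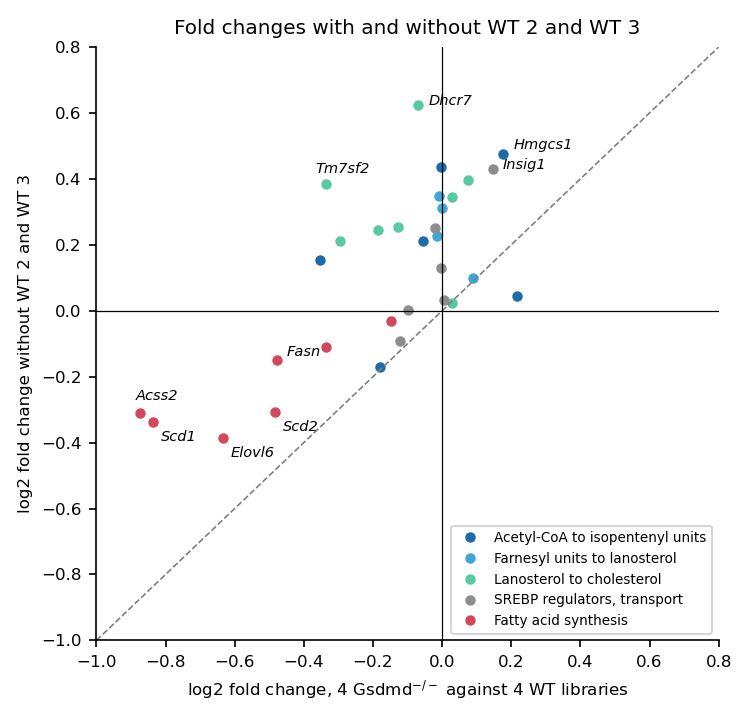
Log2 fold change of each of the 31 genes with all 8 libraries (horizontal axis) and without WT 2 and WT 3 (vertical axis), coloured by role, with a dashed line where both are equal. Both axes share 6 libraries. The 7 fatty acid genes are below 0 on both axes, and 17 of the 18 sterol enzymes are above 0 on the vertical axis.

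Other genes also differed between these pairs of WT libraries, in both directions. Over the 7 macrophage markers the mean of WT 2 and WT 3 was between 0.179 and 1.91 times that of WT 1 and WT 4. The marker Fcgr1 had 36.2, 7.09, 6.66 and 40.7 CPM in WT 1 to 4 and 17.8 to 26.9 CPM in Gsdmd-/-, and Cd68 had 820.4, 414, 424 and 849 CPM in WT and 621 to 778 CPM in Gsdmd-/-. The opposite order was seen in Mertk, with 141, 249.6, 212 and 101 CPM in WT and 103 to 142 CPM in Gsdmd-/-, and in Adgre1, with 291, 319, 326 and 277 CPM in WT and 242 to 275 CPM in Gsdmd-/-. The 5 dendritic cell markers summed to 20.6, 52.4, 48.4 and 21.4 CPM in WT and to 16.5 to 21.2 CPM in Gsdmd-/-. Most of this sum came from Clec9a, whereas Flt3 was at 0 in 7 of 8 libraries and Xcr1 was at most 0.243 CPM. The 4 mast cell markers summed to 71.8, 12.04, 10.5 and 61.6 CPM in WT and to 46.2 to 67.8 CPM in Gsdmd-/-, mostly from Kit, and Mcpt4 was at 0 in all libraries. The 5 stromal markers summed to 0.183 to 2.43 CPM in WT and 0.710 to 1.19 CPM in Gsdmd-/-, the 6 neutrophil and progenitor markers to 4.44 to 6.66 and 5.86 to 6.91 CPM, and the 4 lymphoid markers to at most 0.426 CPM. Enough counts for a test were found for 7 macrophage, 3 dendritic cell, 2 mast cell, 1 neutrophil and progenitor and 1 stromal marker. None of the lymphoid or adipocyte markers was tested. Between the genotypes, 2 of the tested markers were lower in Gsdmd-/- at an unadjusted p under 0.05 (background 7.3%). They were Adgre1, without overlap, with a log2FC of -0.24 (SE 0.0843, adjusted p = 0.310), and Clec9a with -0.95 (SE 0.333, adjusted p = 0.304). Without WT 2 and WT 3 their log2FC values were -0.14 and -0.06. In that fit Fcgr1 was lower in Gsdmd-/- with a log2FC of -0.85 (SE 0.150, adjusted p = 0.0320) and Csf1r with -0.35 (adjusted p = 0.114). Both had an unadjusted p under 0.05 (background 6.8%). The stromal marker Pdgfra was higher at that level, with 1.53 (adjusted p = 0.339, background 6.32%). It had only 3 counts in each of WT 1 and WT 4 and 4 to 11 in the Gsdmd-/- libraries. The part of these markers in the sterol and fatty acid gene levels was not tested.

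The 6 genes of control and transport had log2FC values between -0.12 and 0.15 and 0 at an unadjusted p under 0.05. Srebf2, the main driver of the sterol enzymes, had 165, 160.4, 153 and 134 CPM in WT 1 to 4 and 143, 134, 133 and 153 CPM in Gsdmd-/- 1 to 4 (log2FC -0.12, SE 0.0898, adjusted p = 0.646). Its highest libraries were WT 1 and WT 2, and the mean of WT 2 and WT 3 was 1.05 times that of WT 1 and WT 4, where the median over the 18 sterol enzymes was 1.502. It lies 6.28 Mb from Gsdmd on chromosome 15, where Sqle lies 16.5 Mb away. Srebf1 had 81.3, 92.5, 94.4 and 81.1 CPM in WT and 82.3, 76.7, 86.4 and 80.6 CPM in Gsdmd-/- (log2FC -0.10, SE 0.084, adjusted p = 0.692), and counts per gene do not separate its isoforms. Insig1, itself an SREBP target whose product retains SCAP, had 47.5, 67.1, 68.5 and 46.7 CPM in WT and 65.6, 60.5, 65.0 and 63.2 CPM in Gsdmd-/-. Like Dhcr7 it lay between the WT pairs in all 4 Gsdmd-/- libraries, with a log2FC of 0.15 (SE 0.135, adjusted p = 0.719) and of 0.43 (adjusted p = 0.0656) without WT 2 and WT 3. Insig2 had 27.3, 34.2, 33.6 and 29.3 CPM in WT and 29.6, 29.6, 34.3 and 30.5 CPM in Gsdmd-/-, and Scap had 58.7, 61.9, 57.5 and 55.7 CPM in WT and 57.3, 58.7, 55.7 and 63.2 CPM in Gsdmd-/-. Their log2FC values were -0.00 (SE 0.102) and 0.01 (SE 0.0769), and both flip sign when single libraries are left out. Stard4, a sterol carrier, had a log2FC of -0.02, and of 0.25 without WT 2 and WT 3.

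The 7 fatty acid genes all had log2FC values below 0, from -0.87 to -0.15, where 6653 of the 12911 genes tested were below 0. Acss2 (chr2:155517948-155585724), which makes acetyl-CoA from acetate, had 6.82, 14.9, 17.5 and 9.68 CPM in WT 1 to 4 and 4.68, 4.67, 8.12 and 9.29 CPM in Gsdmd-/- 1 to 4. WT 1 lay within the Gsdmd-/- range and the other WT libraries above it. The means were 12.2 ± 4.87 and 6.69 ± 2.37 CPM (SD, n = 4 each), a log2FC of -0.87 (SE 0.322, unadjusted p = 0.0212, adjusted p = 0.325). Acly (chr11:100476353-100528000), which makes acetyl-CoA from citrate, had the highest level per exon length of the 31 genes, 43.1 CPM per kb, but a log2FC of only -0.15 (SE 0.0954, adjusted p = 0.590). Acaca (chr11:84129672-84401651), the carboxylase that forms malonyl-CoA, had 56.3, 74.9, 55.2 and 40.2 CPM in WT and 43.8, 49.6, 33.9 and 52.2 CPM in Gsdmd-/- (log2FC -0.34, SE 0.187, adjusted p = 0.528), and 30.4% of its stretches occur in other genes.

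Fasn (chr11:120805846-120824547), the fatty acid synthase, had 188, 253, 211 and 117 CPM in WT 1 to 4 and 131, 145, 114 and 162 CPM in Gsdmd-/- 1 to 4. WT 4 was within the Gsdmd-/- range and the other 3 WT libraries were above it. The means were 192 ± 56.8 and 138 ± 20.4 CPM (SD, n = 4 each), a log2FC of -0.48 (SE 0.204, unadjusted p = 0.0406, adjusted p = 0.390). Elovl6 (chr3:129532355-129638495), the elongase that extends the product of Fasn, had 5.48, 8.07, 5.98 and 4.69 CPM in WT and 3.55, 3.79, 3.68 and 4.58 CPM in Gsdmd-/-. It was the 1 gene of the 31 in which all Gsdmd-/- libraries were below all WT libraries (background 4.12%), although WT 4 and Gsdmd-/- 4 nearly touched, and 0 genes showed the opposite order (background 3.48%). Its log2FC was -0.63 (SE 0.194, unadjusted p = 0.00812, adjusted p = 0.247).

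The desaturases Scd1 and Scd2 make monounsaturated from saturated fatty acids. Scd1 (chr19:44394455-44407879) had 13.8, 24.4, 20.9 and 10.8 CPM in WT 1 to 4 and 7.94, 6.74, 11.5 and 13.0 CPM in Gsdmd-/- 1 to 4, so WT 4 was again within the Gsdmd-/- range. Its log2FC was -0.84 (SE 0.280, unadjusted p = 0.0134, adjusted p = 0.284). Scd2 (chr19:44293674-44306864), the main desaturase here at 35.9 CPM per kb against 2.79 for Scd1, had 249.7, 270.3, 241 and 153 CPM in WT and 149, 146, 176 and 183 CPM in Gsdmd-/-. Its log2FC was -0.48 (SE 0.164, unadjusted p = 0.0142, adjusted p = 0.291), just inside a size of 0.5, as was that of Fasn, whereas Elovl6 was just past it. Scd1 and Scd2 share 4.56% and 3.97% of their stretches with each other or with Scd3 and Scd4. Without WT 2 and WT 3 the log2FC values were -0.31 for Acss2, -0.15 for Fasn, -0.39 for Elovl6, -0.34 for Scd1 and -0.31 for Scd2, and 0 of the 5 had an unadjusted p under 0.05. Leaving out 1 library at a time, Scd1, Scd2 and Elovl6 kept an unadjusted p under 0.05 in 8 of 8 fits, Acss2 in 5 and Fasn in 2. Scd2 had an adjusted p of 0.0358 without WT 4 (background 0.64%), and in the other 7 such fits none of the 31 genes passed.

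**Figure D5:**
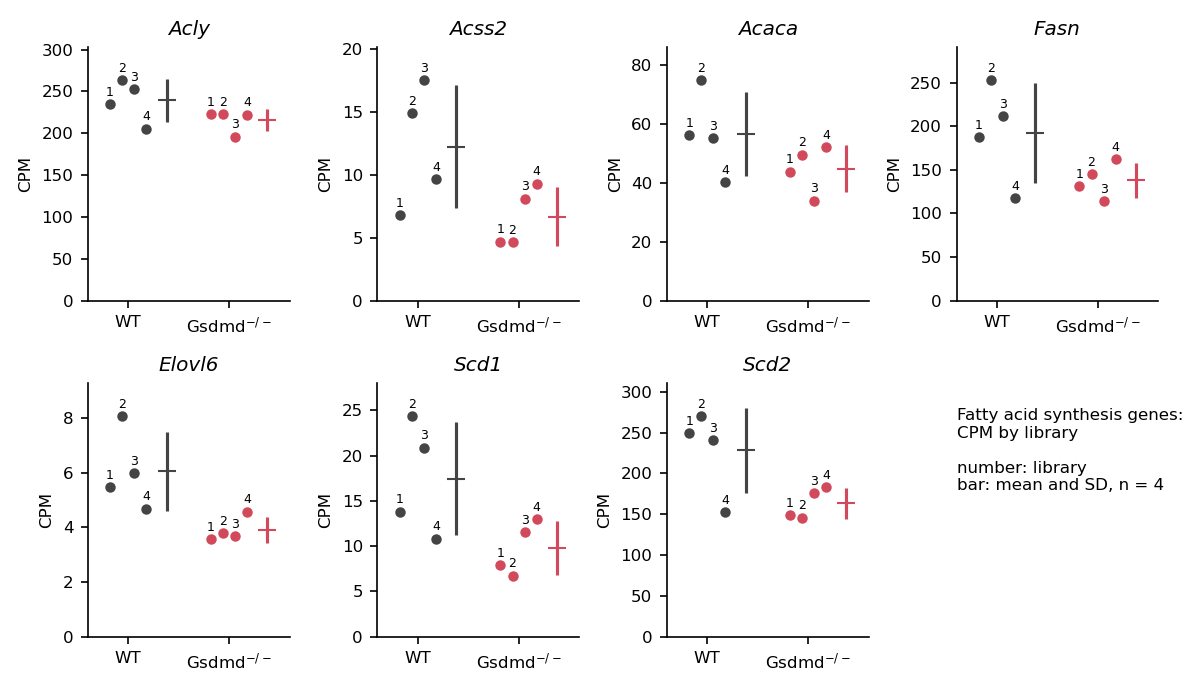
CPM of the 7 fatty acid genes, 1 numbered point per library, with a bar for the mean and SD of each genotype (n = 4) and a vertical axis from 0 in each panel. Elovl6 is the gene without overlap, and in Scd1, Scd2 and Fasn WT 4 lies within the range of the Gsdmd-/- libraries.

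Further lipid genes were counted beside these. All 8 genes of the LXR axis had a log2FC below 0, where 6653 of the 12911 genes tested had. Of the 8, 5 were lower at an unadjusted p under 0.05 (background 7.3%). They were Nr1h3, the gene of the receptor LXR alpha, with a log2FC of -0.43 (SE 0.156, adjusted p = 0.321), its partner Rxra with -0.24 (adjusted p = 0.346), the cholesterol exporter Abcg1 with -0.37 (adjusted p = 0.374), the phospholipid acyltransferase Lpcat3 with -0.35 (adjusted p = 0.363) and Mylip, which directs lipoprotein receptors to degradation, with -0.58 (adjusted p = 0.266). Abcg1 ranged from 469 to 802 CPM in WT and from 471 to 531 CPM in Gsdmd-/-. Without WT 2 and WT 3, Mylip was the 1 gene of the 8 lower at that level (background 6.8%), with -0.71. Of 9 genes listed for SREBP processing and INSIG turnover, 8 were found. The protease gene Mbtps2 (0.21, SE 0.0930) and Erlin2 (0.20) were higher (background 4.74%) and Ube2g2 (-0.35) was lower (background 7.3%) at an unadjusted p under 0.05. Without WT 2 and WT 3 none was, with 0.19 (SE 0.119), 0.12 and -0.20. Of the 17 other fatty acid genes tested among 21 listed, 1 was lower (background 7.3%), the desaturase gene Fads1. It ranged from 93.1 to 102 CPM in WT and from 81.6 to 86.8 CPM in Gsdmd-/- (log2FC -0.19, SE 0.0709, adjusted p = 0.333). Fads1 and Scd4 were the 2 genes of this list in which all Gsdmd-/- libraries were below all WT libraries (background 4.12%). Of 5 genes of sterol storage and oxidation and 8 of other isoprenoid branches that were tested, 0 passed. Against WT 1 and WT 4 alone, Soat1 (0.29) and Nceh1 (0.33), which store and release cholesterol esters, were higher, as were Me1 (0.82) and Elovl7 (0.28), at an unadjusted p under 0.05 (background 6.32%). None of these genes had an adjusted p under 0.05 in either fit.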

How the data were processed

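Bulk RNA-seq of 8 BMDM libraries was used. The authors deposited 1 table of raw read counts per gene, all whole numbers, without normalization. The submitters' processing notes name the build mm10, while the aligner, the counting tool and its strand setting are not given in the sources used here. Of 54532 genes, 54495 were found in GENCODE M21, which gave positions and merged exon lengths. Counts were scaled by TMM, filtered with filterByExpr (12911 genes left) and tested with the quasi-likelihood test of edgeR 4.0.16 (R 4.3.3), two-sided, genotype as the only term, with Benjamini-Hochberg adjustment over all genes tested. An unadjusted p under 0.05 and a log2 fold change of 0.5 were used as cutoffs. Log2 CPM had a prior count of 2. A count of 0 allows up to 3 counts, 0.179 to 0.201 CPM here, which covers counting error only. The test was checked on simulated data. The genes and lists, and the rule for the genes given in full, were chosen with earlier results of these data known. The rule takes genes with an unadjusted p under 0.05, the 5 largest fold changes in each direction, Srebf1, Srebf2, Insig1, Insig2, Scap and Fasn. Shared sequence was counted as stretches of 50 bases that also occur in transcripts of other genes. Alternatives were limma voom (3.58.1), DESeq2 1.42.0, RLE or no scaling factors, other filters, a replicate block, and leaving out each library or WT 2 and WT 3. The counts of fatty acid and of sterol genes at an unadjusted p under 0.05 were chosen as results once the data had been seen.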

Additional observations from a re-analysis of the deposited data

Results flagged for a closer look

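For each of the 31 genes and a few summary values, the 4 libraries of a genotype were checked for 1 library far from the other 3. Of 76 groups of 4, 2 were past the 95% limit of Dixon's test for the gap to the nearest library, and chance alone gives about 1 in 20. Both were in Gsdmd-/- 3. Fdft1, squalene synthase, had 29.4 CPM there and 25.8 to 26.2 CPM in the other Gsdmd-/- libraries, a gap of 0.8895 of the range. Acly had 196 CPM there and 222 to 223 CPM in the others, a gap of 0.9589 of the range.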

How the results depend on the processing

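Under limma voom, DESeq2, RLE or no scaling factors, other filters and the replicate block, 0 of the 31 genes were higher past the fold cutoff (an unadjusted p under 0.05 with a log2FC of 0.5 or more) and 0 had an adjusted p under 0.05, as in the reported fit. The 3 lower genes past the fold cutoff and the 5 lower fatty acid genes stayed within 1.5 times. Leaving out 1 library at a time, the genes lower past the fold cutoff ranged from 2 to 5 (5 without WT 4, where 5.37% of all genes were, or Gsdmd-/- 4, where 3.04% were), the fatty acid genes lower at an unadjusted p under 0.05 from 3 (without WT 3, Gsdmd-/- 1 or Gsdmd-/- 2, where 4.83%, 4.98% and 5.73% of all genes were lower) to 7 (without WT 4, where 11.1% were), the sterol enzymes lower from 0 to 2 (2 without WT 4, 1 without WT 1, where 8.61% of all genes were lower) and the genes with an adjusted p under 0.05 from 0 to 1 (Scd2, without WT 4, where 0.64% of all genes passed). The median log2 fold change of the 31 genes ran from -0.14 to 0.0038. Without both WT 2 and WT 3 these counts were 0 lower and 1 higher past the fold cutoff (Dhcr7), 0 fatty acid genes lower and 1 gene with an adjusted p under 0.05, and the median was 0.15. The difference of the mean log2 CPM per library was then 0.12 in place of -0.13, and single omissions gave -0.23 to -0.039. This fit has fewer samples. For small log2 fold changes the direction reversed. Insig2 was at 0.015 without a filter, 0.13 without WT 2 and WT 3 and between -0.063 and 0.038 with 1 library left out. Srebf1 was at 0.0033 without WT 2 and WT 3. Scap ran from -0.032 to 0.033 and Hsd17b7 from -0.044 to 0.20 with 1 library left out. The cause was not tested. Fasn had an unadjusted p of 0.0642 in limma voom and of 0.0673 with the replicate block in edgeR. Of 224 values of 14 named genes under alternatives, 192 kept their direction and side of the threshold. In 12 the direction reversed, 4 gained an unadjusted p under 0.05 and 16 lost it. All 16 were values of Acss2, Scd1, Elovl6, Scd2 and Fasn, the only named genes with such a p in the reported fit. The labels do not say whether the replicate numbers pair the libraries. Deviations of same-numbered libraries from their genotype means correlated between -0.201 and 0.182, and those of differently numbered libraries between -0.253 and 0.333. These values cannot decide whether the libraries were paired. With the block, 3 genes were lower past the fold cutoff (2.77% of all genes), 4 fatty acid genes were lower (5.86%), 0 passed adjustment (0.194%) and the median was -0.05.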

Other observations

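The lipid genes varied more among WT than among Gsdmd-/- libraries. The SD of log2 CPM was larger in WT for 28 of the 31 genes (90.3%), where this was so for 71.7% of all genes tested, and the exceptions were Pmvk, Lss and Scap. The median SD of the 18 sterol enzymes was 0.350 in WT and 0.160 in Gsdmd-/-, and that of the 8 enzymes from lanosterol to cholesterol was 0.421 and 0.150. Over all genes tested the medians were 0.236 and 0.157. No test was run on these spreads.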
